A study of Mus musculus with 64 samples.

Results

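Glucose enters heart muscle cells through carriers of the Slc2a family, is split by glycolysis into pyruvate and lactate, or is stored as glycogen. The genes described here are the carriers Slc2a1, Slc2a4, Slc2a12 and Slc16a1, the enzymes of glycolysis from hexokinase to lactate dehydrogenase, and the enzymes that build and break down glycogen. The list names 32 genes by symbol. The gene table holds 31 of them among its 16913 genes, and Aldoc, a brain-type aldolase, is not among them. All 31 passed the filter on low counts.

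Hearts of C57BL/6J mice were profiled by bulk RNA sequencing in 64 libraries. Transgenic (TG) mice carried cTnT-delta160E, a form of cardiac troponin T that lacks a glutamate. Troponin T is a thin-filament protein encoded by Tnnt2. Non-transgenic (nTG) mice did not carry the transgene. Deletions of this kind in cardiac troponin T are known from inherited cardiomyopathy. The promoter that drives the transgene and the ages of the mice are not given in the sources used here. Mice in high intensity interval training (HIIT) ran on a treadmill for 6 weeks on 3 days a week, in sessions of 31 minutes. A session had 4 high intensity intervals, set to 85% of the mean speed reached in a graded test, and 4 low ones, set to 50%. Sedentary mice did not run. Every library is labelled as a biological replicate. Among males there were 7 sedentary nTG, 9 sedentary TG, 8 trained nTG and 8 trained TG libraries. Among females there were 8 sedentary nTG, 8 sedentary TG, 10 trained nTG and 6 trained TG libraries.

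Gene totals ran from 34.6 M to 67.1 M counts per library, with a median of 48 M. The columns of the gene table did not carry the labelled animals under their own names: by name, 32 of the 64 went against the labelled sex and 30 against the labelled genotype. Each library was therefore matched to a gene column through a table of long noncoding RNAs, by the highest correlation between the tables over 389 autosomal transcripts found in both tables. All 64 pairs were best in both directions, with r from 0.60 to 0.86 and the highest next-best r at 0.404. After this match 0 of 64 libraries went against sex or genotype, and Tnnt2 ran from 2665 to 3428 CPM (counts scaled to the library total after TMM normalization) in nTG and from 6903 to 12001 in TG libraries. Every value below rests on the match. Cardiomyocyte markers summed to 97279 CPM or more in every library, while 8 of 10 skeletal muscle markers were not in the table and the other two summed to at most 7.17 CPM.

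In a working heart most fuel is fatty acid, and glucose and lactate supply the rest. Slc2a4 (GLUT4) is the carrier that insulin and contraction bring to the cell surface, Slc2a1 (GLUT1) is the basal carrier, and Slc2a12 (GLUT12) is a further carrier found in heart and muscle. Phosphofructokinase, built from Pfkm, Pfkl and Pfkp subunits, is the main control step of glycolysis, and the Pfkfb enzymes make and remove fructose 2,6-bisphosphate, its strongest activator. Heart muscle is rich in the muscle forms of several enzymes (Pfkm, Pgam2, Eno3, Pygm) and in the lactate dehydrogenase subunit Ldhb, while Pfkp, Pgam1, Eno1 and Ldha are better known from other tissues. Pygb, the brain form of phosphorylase, is also expressed in heart.

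The 250 bases before the start are shown for Pfkfb1 and Slc2a12, the members with the largest falls in TG in the mean of the strata, and for Pfkp, the one with the largest rise. They come from RefSeq on build GRCm38.p6, written from 5′ to 3′ on the gene's own strand. Of the 31 members, 30 had such a window, 46 windows in all, and Pfkfb1 had 4 starts. Capitals mark motifs searched on both strands: the letters of a TATA box (TATAAA), a GC box (GGGCGG) and a MEF2 site, the element bound by a muscle transcription factor. The first line is the start of Pfkfb1 at chrX:150589666-150589915 on the plus strand, with TATAAA beginning 193 bases before the start, which is not the place of a TATA box close to a start, and a MEF2 match beginning 113 bases before it. The second is the Pfkfb1 start at chrX:150587993-150588242 on the plus strand, with 2 GC boxes. Of the 4 Pfkfb1 starts these are the ones with a match, named upstream and downstream relative to each other. The windows not shown, at chrX:150587195-150587444 further upstream and chrX:150594178-150594427 further downstream, had no match. The third is Pfkp at chr13:6648772-6649021 on the minus strand, with 4 GC boxes, and the last is Slc2a12 at chr10:22644761-22645010 on the plus strand, with no match.
Pfkfb1, downstream start: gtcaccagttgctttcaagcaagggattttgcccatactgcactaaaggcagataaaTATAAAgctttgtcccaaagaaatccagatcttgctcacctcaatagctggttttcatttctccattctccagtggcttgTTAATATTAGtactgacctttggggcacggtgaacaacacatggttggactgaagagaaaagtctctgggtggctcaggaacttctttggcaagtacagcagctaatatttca
Pfkfb1, upstream start: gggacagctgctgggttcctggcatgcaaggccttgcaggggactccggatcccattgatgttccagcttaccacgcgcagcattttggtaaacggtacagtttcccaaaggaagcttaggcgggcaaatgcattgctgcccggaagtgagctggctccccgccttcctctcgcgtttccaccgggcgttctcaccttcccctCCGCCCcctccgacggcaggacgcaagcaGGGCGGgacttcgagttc
Pfkp: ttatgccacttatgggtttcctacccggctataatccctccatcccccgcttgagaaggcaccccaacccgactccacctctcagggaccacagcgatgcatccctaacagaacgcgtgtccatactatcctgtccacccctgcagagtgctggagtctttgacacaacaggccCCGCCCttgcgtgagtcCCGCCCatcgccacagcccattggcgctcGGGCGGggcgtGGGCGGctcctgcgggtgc
Slc2a12: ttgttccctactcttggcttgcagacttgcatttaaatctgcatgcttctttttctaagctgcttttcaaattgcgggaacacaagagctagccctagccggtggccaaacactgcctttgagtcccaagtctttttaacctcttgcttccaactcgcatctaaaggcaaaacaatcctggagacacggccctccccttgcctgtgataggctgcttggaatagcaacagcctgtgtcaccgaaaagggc
TATAAA stood, at any position, in 12.37% of all 32851 promoter windows and in 1 of the members' 46, the Pfkfb1 window shown. GC boxes stood in 32.74% of all windows and in 20 of the members' (43.48%). MEF2 sites stood in 2.919% of all windows and in 2 of the members', those of Pgam2 and Pfkfb1. ACGTG, the core of the hypoxia response element, stood in 16.57% of all windows and in 16 of the members' (34.78%). CACGTG, an E-box that contains this core, stood in 6.021% of all and in 4 of the members'. TNAAGGTCA, a site of estrogen-related receptors, stood in 1.138% of all and in 0 of the members' windows. The counts are per gene, so they do not say which of the Pfkfb1 starts was read.

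The members spanned a wide range of levels. On the scale of CPM per kb of exon, the mean over all 64 libraries was 810 for Ldhb, which favours lactate uptake and oxidation, 789 for Aldoa, the aldolase of muscle, and 656 for Gapdh. The muscle forms followed, with 456 for Pygm (glycogen phosphorylase), 404 for Pgam2 (phosphoglycerate mutase), 396 for Eno3 (enolase) and 283 for Pfkm. At the other end stood Pfkp at 4.10, Phkg1 (the muscle catalytic subunit of phosphorylase kinase) at 2.21, Slc2a12 at 1.46 and Pfkfb1 at 1.27. Slc2a4 reached 122 on this scale and Slc2a1 6.97. Together the 31 members took from 1.28% to 1.67% of all counts of a library. Within a group, the median coefficient of variation was lowest for Ldha at 4.5% and highest for Phkg1 at 23.9%, with Pfkfb1 at 21.8%.

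**Figure D1:**
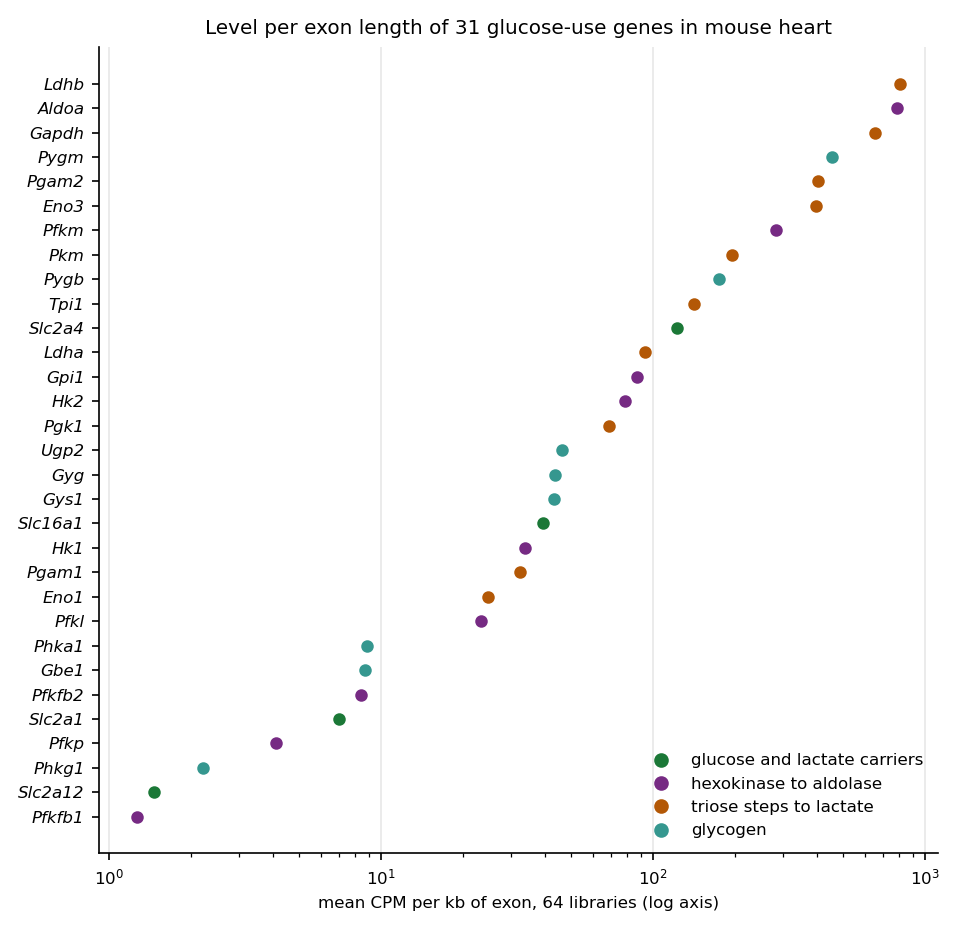
Mean level of each of the 31 genes in CPM per kb of exon (log axis) over 64 libraries, grouped by role. Ldhb, Aldoa and Gapdh sit at the top, at 810, 789 and 656, and Slc2a12 and Pfkfb1 at the bottom, at 1.46 and 1.27.

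The first question was how the transgene related to these genes in each sex and training state. Averaged over the 4 strata, the edgeR quasi-likelihood test called 24 of the 31 members at an adjusted p under 0.05, where 39% of all genes were called. Of these 4 were higher, against 18.5% of genes, and 20 lower, against 20.5%. The median member log2 fold change was -0.09, against 0.01 over all genes. By role, 3 of 4 carriers fell. Among the 9 genes from hexokinase to aldolase 5 fell and 2 rose, among the 10 from triose phosphate to lactate 7 fell and 1 rose, and among the 8 glycogen genes 5 fell and 1 rose. The members not called were Slc2a1, Gpi1 (glucose 6-phosphate isomerase), Pfkfb2, Pgam1, Eno1, Gyg (glycogenin, the primer of glycogen) and Phka1 (a regulatory subunit of phosphorylase kinase).

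Within strata the counts were smaller. In sedentary males 14 of 31 members were called, where 20.6% of all genes were: 2 were higher, against 9.39% of genes, and 12 lower, against 11.2%. In trained males 14 were called, against 14% of all genes, with 2 higher (5.65% of genes) and 12 lower (8.31%). In sedentary females 8 were called, against 4.37% of all genes, with 2 higher (1.58%) and 6 lower (2.78%). In trained females 14 were called, against 14.8% of all genes, with 1 higher (5.37%) and 13 lower (9.43%). The members' calls were mostly lower ones in each stratum. Slc2a12, Pfkm, Pfkl and Pfkfb1 were called lower in all 4 strata, as were 1.68% of all genes. Pfkp was called higher in all 4, as were 0.621%. Slc2a4, Pgam2, Slc16a1, Pygm and Gys1 were called lower in 3 strata. These and the members called in all 4 are those called in 3 or more in a single direction, as were 6.23% of all genes. The call of Pfkl in sedentary females was marginal: its edgeR adjusted p was 0.040, and it was 0.053 with a replicate block, 0.050008 with median-of-ratios size factors, and above the threshold in 9 of 16 fits that left out 1 library. Of the 50 calls in single strata 13 were lost in at least 1 such fit. Besides Pfkl these were Hk2 (7 of 16 fits), Pgam2 (10) and Slc16a1 (9) in sedentary males and Phkg1 (1) in sedentary females. In trained males they were Aldoa (11), Tpi1 (10), Gapdh (2), Pkm (7), Pygm (8) and Ugp2 (2), and in trained females Tpi1 (8) and Pygb (1).

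**Figure D2:**
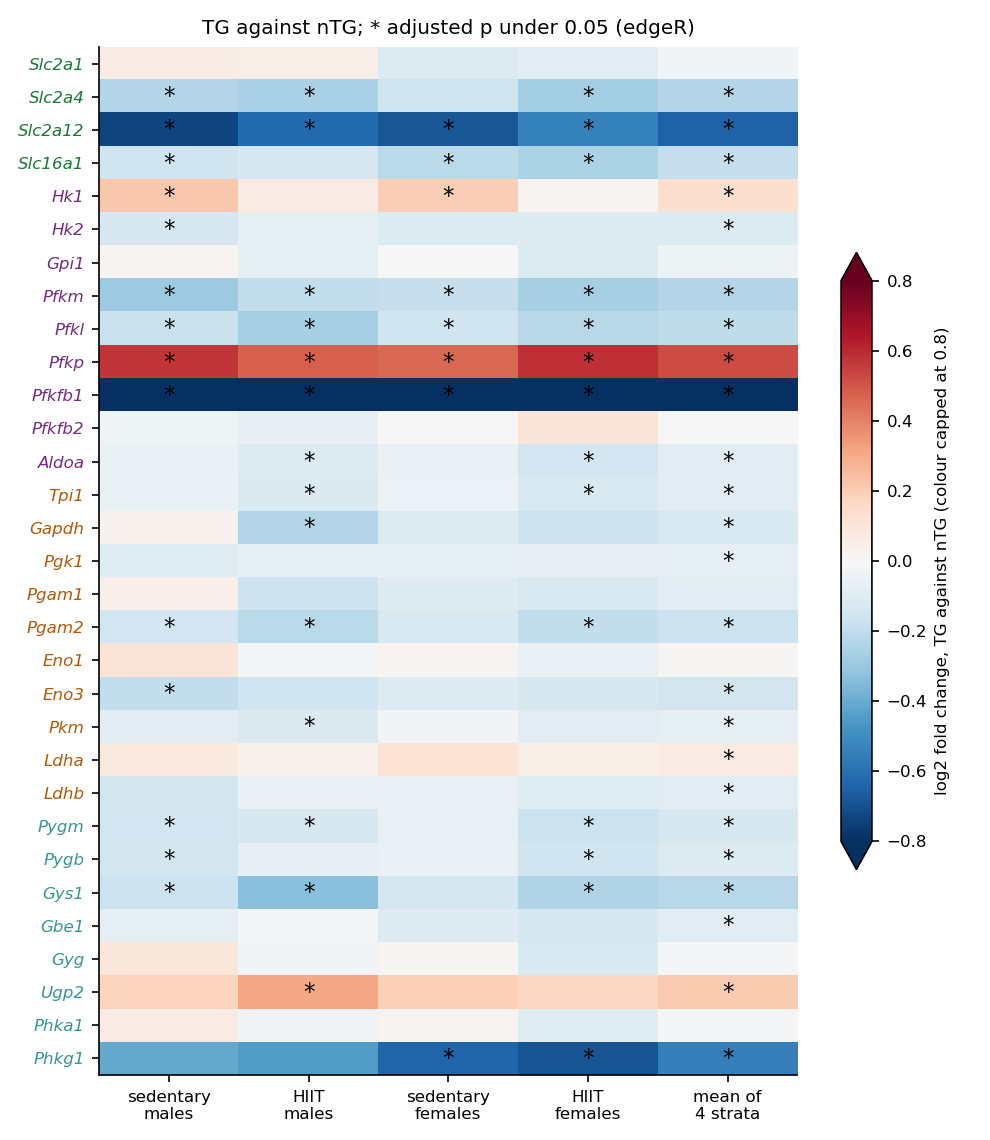
Heat map of log2 fold change, TG against nTG, for the 31 genes in the 4 strata and their mean; colour is capped at 0.8 and an asterisk marks an edgeR adjusted p under 0.05. Pfkfb1 and Slc2a12 are lower and Pfkp is higher in every column, and most other genes are slightly lower.

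Of the carriers, Slc2a12 had the widest gap. In sedentary males the nTG libraries ran from 6.87 to 8.36 CPM (median 7.37) and the TG libraries from 2.74 to 6.80 (median 4.23). In trained males they ran from 5.91 to 10.4 (median 7.93) and from 3.81 to 6.02 (median 5.27). The groups did not overlap in sedentary males and met narrowly in trained males. In sedentary females nTG libraries ran from 4.88 to 8.79 (median 7.70) and TG from 3.83 to 5.00 (median 4.46), and in trained females from 6.27 to 9.28 (median 7.67) and from 4.18 to 5.84 (median 5.50). The trained females did not overlap and the sedentary females did so by a small margin. The log2 fold change was -0.74 ± 0.12 (SE) in sedentary and -0.62 ± 0.12 in trained males (edgeR adjusted p 6.51e-06 and 0.000152). It was -0.68 ± 0.12 in sedentary and -0.54 ± 0.12 in trained females (edgeR adjusted p 8.96e-05 and 0.00153). Its mean over the strata was -0.65 ± 0.060 (edgeR adjusted p 1.34e-13), a level of 0.639 times that in nTG.

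Slc2a4, the insulin-responsive carrier, changed less. In sedentary males nTG libraries ran from 414 to 512 CPM (median 456) and TG from 339 to 434 (median 394). In trained males the ranges were 439 to 522 (median 459) and 317 to 454 (median 392). Both pairs of groups overlapped at their edges. In sedentary females the ranges were 394 to 464 (median 422) and 326 to 433 (median 373), and in trained females 424 to 510 (median 491) and 367 to 425 (median 402). The trained female groups overlapped by a narrow margin. Log2 fold changes were -0.24 ± 0.054, -0.26 ± 0.054, -0.16 ± 0.054 and -0.27 ± 0.056 in sedentary and trained males and then in sedentary and trained females, with edgeR adjusted p of 0.000896, 0.000449, 0.0758 and 0.000435. The mean was -0.23 ± 0.027 (edgeR adjusted p 2.40e-10).

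Slc2a1, the basal carrier, ran from 20.3 to 31.4 CPM in nTG (median 24) and from 16.6 to 29 in TG (median 23.8). It was not called in any stratum, and its mean log2 fold change was -0.02 ± 0.039 (edgeR adjusted p 0.68). Slc16a1 (MCT1), which carries lactate across the membrane, ran from 151 to 212 CPM in nTG (median 186) and from 137 to 190 in TG (median 158). In edgeR it was called lower in sedentary males, sedentary females and trained females, and the fit with a replicate block called it in trained males as well. Its log2 fold change had a mean of -0.19 ± 0.027 (edgeR adjusted p 5.28e-08).

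The hexokinases trap glucose in the cell, and they moved in opposite directions. Hk1 ran from 235 to 284 CPM in sedentary nTG males (median 261) and from 267 to 329 in sedentary TG males (median 298). In sedentary females it ran from 234 to 286 (median 260) and from 263 to 324 (median 298). Both pairs overlapped, and Hk1 rose by 0.22 ± 0.046 in males and 0.20 ± 0.046 in females on the log2 scale (edgeR adjusted p 0.000413 and 0.00478). In trained males the medians were 272 and 288 and in trained females 299 and 313, and neither difference was called. Hk2, the insulin-responsive form, ran from 430 to 523 CPM over nTG libraries (median 489) and from 372 to 516 over TG libraries (median 450). Its mean log2 fold change was -0.11 ± 0.023 (edgeR adjusted p 0.000148), and among the strata it was called in sedentary males.

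Of the phosphofructokinase subunits Pfkm and Pfkl fell and Pfkp rose. Pfkm ran from 973 to 1140 CPM in sedentary nTG males (median 1084) and from 846 to 949 in sedentary TG males (median 880). In trained males it ran from 965 to 1102 (median 1036) and from 744 to 964 (median 921). The groups did not overlap in either training state of the males. In sedentary females the ranges were 873 to 1025 (median 951) and 790 to 889 (median 842), and in trained females 883 to 1089 (median 1015) and 780 to 880 (median 842). Trained females did not overlap either. The log2 fold changes of Pfkm were -0.29 ± 0.041, -0.20 ± 0.041, -0.18 ± 0.041 and -0.26 ± 0.042, in the order used for Slc2a4 (edgeR adjusted p 5.84e-07, 0.000427, 0.00261 and 1.19e-05). The mean was -0.23 ± 0.021 (edgeR adjusted p 2.18e-14).

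Pfkl, the liver-type subunit, ran from 144 to 190 CPM over nTG libraries (median 166) and from 117 to 166 over TG libraries (median 144). In trained males nTG libraries ran from 152 to 177 and TG libraries from 117 to 149, without overlap, and in trained females from 156 to 190 and from 140 to 156, also without overlap. Its mean log2 fold change was -0.21 ± 0.024 (edgeR adjusted p 3.02e-10), and in trained males it was -0.26 ± 0.048 (edgeR adjusted p 7.48e-05).

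Pfkp, the platelet-type subunit, ran from 35 to 54 CPM in sedentary nTG males (median 46.5) and from 45.4 to 80.6 in sedentary TG males (median 71.9). In trained males it ran from 35.5 to 59 (median 45.3) and from 47.9 to 77.4 (median 65.8). The upper nTG libraries overlapped the lower TG libraries in both. In sedentary females it ran from 36.9 to 54.7 (median 46.6) and from 46.6 to 74.4 (median 64.2), and in trained females from 40.3 to 53.1 (median 43.4) and from 61.8 to 75.7 (median 63.1). In trained females every TG library was above every nTG library, which held for 0.526% of all genes. Pfkp rose by 0.57 ± 0.099, 0.48 ± 0.098, 0.46 ± 0.098 and 0.58 ± 0.099 (edgeR adjusted p 2.28e-05, 0.000424, 0.00152 and 2.85e-05). The mean was 0.52 ± 0.049 (edgeR adjusted p 2.22e-13), a level of 1.44 times that in nTG, and 23 of 31 TG libraries were above the highest of the 33 nTG libraries.

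Pfkfb1, a form of the enzyme pair that sets fructose 2,6-bisphosphate, had the largest change of all members. In sedentary males nTG libraries ran from 5.66 to 8.72 CPM (median 6.43) and TG libraries from 1.25 to 4.25 (median 2.18). In trained males they ran from 4.09 to 10.2 (median 8.69) and from 1.59 to 5.39 (median 3.43). The sedentary groups did not overlap and the trained groups did. In sedentary females they ran from 5.05 to 7.90 (median 6.42) and from 1.85 to 3.96 (median 2.48), and in trained females from 4.44 to 9.34 (median 8.02) and from 1.71 to 2.94 (median 2.76). Neither pair of female groups overlapped. The log2 fold changes were -1.56 ± 0.19, -1.16 ± 0.18, -1.36 ± 0.19 and -1.56 ± 0.20 (edgeR adjusted p 1.28e-08, 7.63e-06, 9.72e-07 and 1.22e-07). The mean was -1.41 ± 0.095 (edgeR adjusted p 4.88e-19), a level of 0.376 times that in nTG, and 28 of 31 TG libraries were below the lowest nTG library. Pfkfb2, the heart-type form of the same enzyme, ran from 45.2 to 78.2 CPM in nTG and from 48.8 to 73.4 in TG, with a mean log2 fold change of 0.00 ± 0.036 (edgeR adjusted p 0.96).

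**Figure D3:**
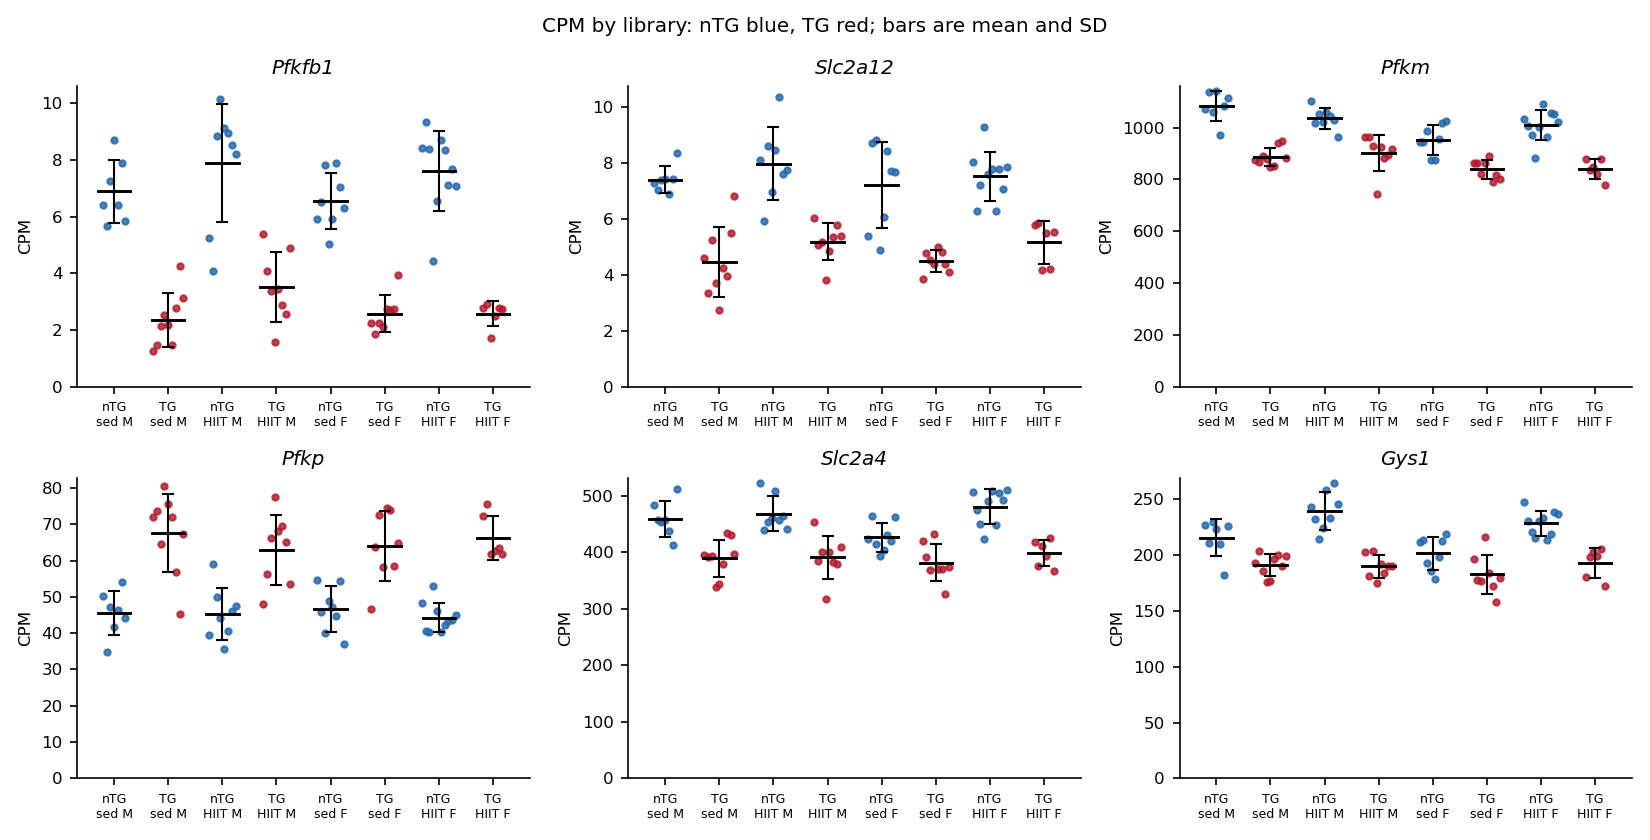
CPM of Pfkfb1, Slc2a12, Pfkm, Pfkp, Slc2a4 and Gys1 in each of the 64 libraries by group, with the group mean and SD. TG points lie below nTG points for Pfkfb1, where 28 of 31 are under the lowest nTG library, and above them for Pfkp, where 23 of 31 exceed the highest.

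Groups that did not overlap were few beyond these. In sedentary males 3 members were lower without overlap (Slc2a12, Pfkm, Pfkfb1), where 1.3% of all genes were, and in trained males 3 (Pfkm, Pfkl, Gys1), where 1.29% were. In sedentary females 1 member, Pfkfb1, was lower without overlap, where 0.284% of genes were. In trained females 6 were (Slc2a12, Pfkm, Pfkl, Pfkfb1, Pygm, Gys1), where 2.04% of genes were.

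Averaged over the strata, Aldoa and 7 enzymes of the steps from triose phosphate to lactate were also lower (Tpi1, Gapdh, Pgk1, Pgam2, Eno3, Pkm and Ldhb), with log2 fold changes from -0.17 for Pgam2 to -0.08 for Pkm. Pgam2, the muscle mutase, ran from 280 to 446 CPM in nTG (median 356) and from 251 to 389 in TG (median 318) and was called in 3 strata. Eno3, the muscle enolase, ran from 557 to 827 (median 730) and from 520 to 734 (median 657), with a mean of -0.15 ± 0.029 (edgeR adjusted p 3.09e-05). Gapdh, at 2210 to 3557 CPM in nTG and 1863 to 3461 in TG, was called in trained males, where it fell by 0.24 ± 0.071 (edgeR adjusted p 0.0166). In the other strata edgeR did not call it, while the fit with a replicate block also called it in trained females.

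The lactate dehydrogenase subunits differed in sign. Ldha, which favours lactate production, ran from 276 to 332 CPM in nTG (median 301) and from 289 to 373 in TG (median 316), and its mean log2 fold change was 0.07 ± 0.019 (edgeR adjusted p 0.00374). Ldhb ran from 1018 to 1472 (median 1313) and from 963 to 1463 (median 1221), with a mean of -0.09 ± 0.028 (edgeR adjusted p 0.0114). In edgeR neither was called in a single stratum, while DESeq2 called Ldha in sedentary females and the fit with a replicate block called Ldhb in sedentary males. The genotypes overlapped in both genes.

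Of the glycogen genes, Gys1 (glycogen synthase of muscle) had the clearest gap. In sedentary males nTG libraries ran from 182 to 230 CPM (median 223) and TG from 176 to 204 (median 193). In trained males they ran from 214 to 264 (median 238) and from 175 to 204 (median 190), without overlap. In sedentary females they ran from 179 to 219 (median 205) and from 158 to 217 (median 179), and in trained females from 214 to 248 (median 231) and from 172 to 206 (median 199), again without overlap. The trained groups were apart in both sexes. Gys1 fell by 0.33 ± 0.049 in trained males (edgeR adjusted p 2.00e-06) and by 0.24 ± 0.051 in trained females (edgeR adjusted p 0.000572). In sedentary males it fell by 0.17 ± 0.049 (edgeR adjusted p 0.00804), and in sedentary females the value was -0.14 ± 0.049 (edgeR adjusted p 0.0915). The mean was -0.22 ± 0.025 (edgeR adjusted p 5.79e-11).

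Pygm, the muscle phosphorylase that releases glucose from glycogen, ran from 1314 to 1699 CPM in nTG (median 1518) and from 1172 to 1596 in TG (median 1415). Its mean log2 fold change was -0.13 ± 0.023 (edgeR adjusted p 4.36e-06) and it was called in both male strata and in trained females. Pygb, the brain form, and Gbe1, the branching enzyme, were also lower in the mean. Phkg1 ran from 8.17 to 26.6 CPM in nTG (median 15.7) and from 6.90 to 20.3 in TG (median 11), with a mean of -0.55 ± 0.089 (edgeR adjusted p 9.56e-07). Ugp2, which makes UDP-glucose for glycogen synthase, was the exception, with 94.0 to 182 CPM in nTG (median 129), 109 to 194 in TG (median 149) and a mean log2 fold change of 0.21 ± 0.047 (edgeR adjusted p 0.000217).

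Other markers moved with genotype. In the mean of the strata all 7 fibroblast and all 7 macrophage and leukocyte markers were called higher in TG, and 5 of 7 cardiomyocyte markers lower, with Ttn called higher. Of 6 blood markers 3 were lower in the mean and 5 in trained males, the stratum of the Gapdh call, where they summed to 573 to 1114 CPM in nTG and 260 to 555 in TG. In sedentary males 1 blood marker was called higher and 0 lower, and in each female stratum 0 were called. In the mean 1 of 4 atrial cardiomyocyte and 1 of 2 skeletal muscle markers were also higher and 2 of 6 endothelial markers lower. Fibroblast markers summed to 772 to 1035 CPM in sedentary nTG males and 857 to 1511 in sedentary TG males, and to 883 to 1538 and 1058 to 1392 in sedentary females. In trained males the nTG and TG sums ran from 661 to 931 and from 813 to 1892. In trained females they ran from 753 to 1017.5 and from 1035.5 to 1356, and there the genotypes did not overlap. In bulk tissue fewer cells of a type and less RNA per cell cannot be told apart, and the part of these markers in the results was not tested. Some libraries stood apart, 5 that were lowest of their group in 15 or more members and 1 rich in blood markers. The fourth library of trained TG males had the highest fibroblast sum of all (1892 CPM) and the highest atrial cardiomyocyte sum (682 CPM, where the next of its group had 236). It was lowest of its group in 17 of 31 members, and without it 10 members were called in trained males, 2 higher and 8 lower, against 10.4% of all genes. In the same comparison 9 were called without the first or the fifth trained nTG male library, against 11% of all genes in each case. The fifth library of sedentary TG males had a blood marker sum of 4626 CPM, where the median of its group was 549, and without it 11 members were called in sedentary males, 2 higher and 9 lower, against 17% of all genes. The fourth library of sedentary nTG females was lowest of its group in 16 of 31 members, with a fibroblast sum of 1538 CPM where the others reached at most 1170 and an atrial sum of 265 CPM where they reached at most 103. Without it 9 members were called in sedentary females, against 5.78% of all genes. The seventh library of trained nTG females was also lowest in 16, and without it 16 members were called in trained females, against 14.8%. The fifth library of sedentary nTG males was lowest in 15, with an atrial sum of 601 CPM where the next had 136, and without it 16 members were called in sedentary males, against 21.7%. The sixth library of trained TG females was lowest in 15, and without it 13 were called in trained females, against 12.2%. The mean over the strata called 24 members without any single one of these 6 libraries.

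The counts of 11 members share exon bases with another gene. Strand was not given for the counting, so reads from the shared bases cannot be told apart. Pfkfb1 shares 123 exon bases with Apex2, a DNA repair gene on the other strand, and Apex2 was itself lower in TG, with a log2 fold change of -0.58 ± 0.051 (edgeR adjusted p 1.92e-14). Pfkp shares 748 bases with Pitrm1, which was lower at -0.09 ± 0.022 (edgeR adjusted p 0.000499). Slc2a12 shares 407 with Tbpl1, at 0.06 ± 0.040, and Gys1 shares 310 with Ruvbl2, at -0.04 ± 0.024, and neither partner was called. Pkm shares 767 with Gm49759 on the same strand, and Gm49759 was higher in TG at 0.18 ± 0.058 (edgeR adjusted p 0.0116), where Pkm was lower. Gapdh shares 68 with Iffo1, higher at 0.17 ± 0.049 (edgeR adjusted p 0.00526), and Tpi1 shares 34 with Spsb2, higher at 0.20 ± 0.069 (edgeR adjusted p 0.0154), so these partners also ran opposite to their member. Of 12 such genes 5 were called. Gapdh, Aldoa, Ldha, Eno1, Pgk1, Pgam1, Tpi1 and Pkm belong to families with processed pseudogenes. How the counting treated reads shared with such copies is not given in the sources used here, and their part in these values was not tested.

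Ratios of sister genes within a library, which total counts do not move, give the same data another way. The Pfkp to Pfkm count ratio had a median of 0.0447 in nTG and 0.0762 in TG, from 0.0308 to 0.0602 and from 0.0479 to 0.104. Pfkfb1 to Pfkfb2 had medians of 0.121 and 0.0429, with ranges of 0.0606 to 0.186 and 0.0184 to 0.0882. Hk1 to Hk2 had medians of 0.563 and 0.674, with ranges of 0.467 to 0.696 and 0.543 to 0.807. Pfkl to Pfkm differed little, at 0.164 and 0.166, as did Pygb to Pygm, at 0.569 and 0.570. On the log2 scale the medians differed, TG minus nTG, by 0.77 for Pfkp to Pfkm, -1.49 for Pfkfb1 to Pfkfb2 and 0.26 for Hk1 to Hk2, and by 0.11 for Ldha to Ldhb. They differed by -0.31 for Slc2a12 to Slc2a4, 0.15 for Slc2a1 to Slc2a4, 0.19 for Eno1 to Eno3 and 0.11 for Pgam1 to Pgam2. These use the counts tested above and are descriptions, not further tests.

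**Figure D4:**
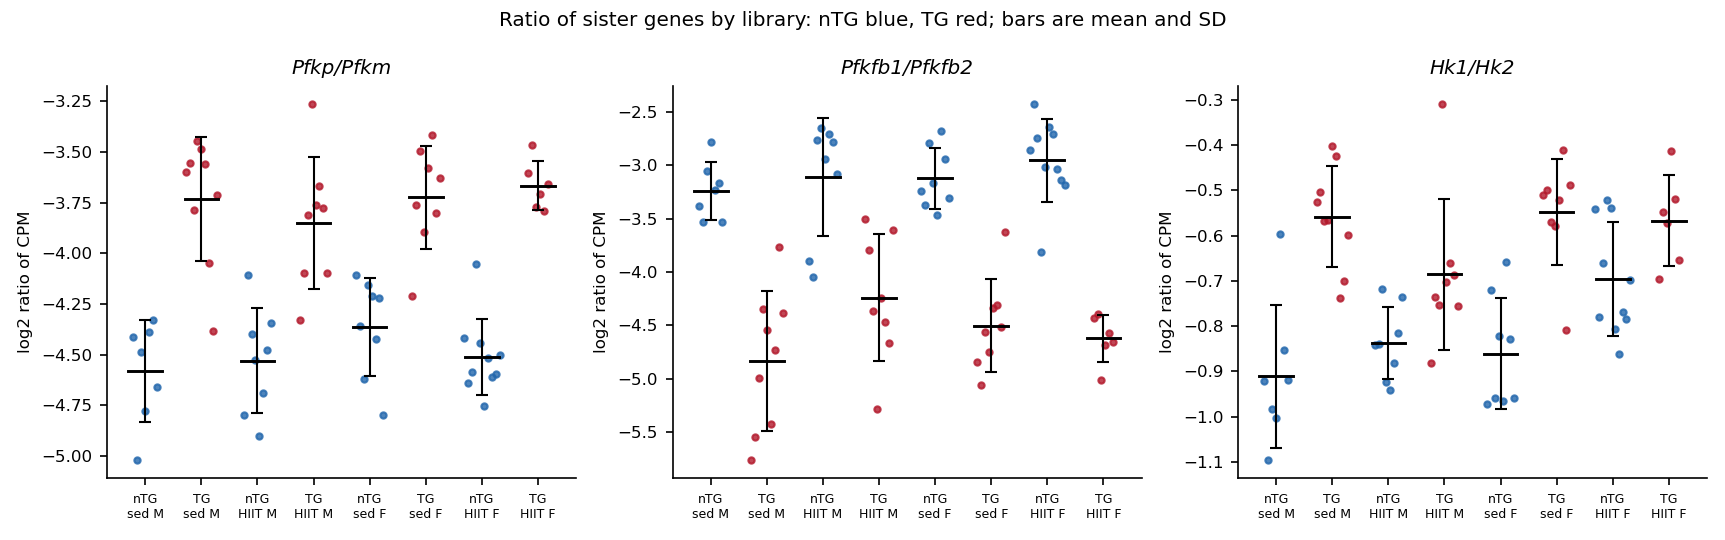
Log2 ratio of Pfkp to Pfkm, Pfkfb1 to Pfkfb2 and Hk1 to Hk2 in each library by group. The TG medians differ from the nTG medians by 0.77, -1.49 and 0.26.

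Genes next to these in the same pathways were read from 4 further lists. Of 19 other glycolysis genes in the table, 5 were called higher and 8 lower in the mean of the strata, and of 21 other glycogen genes 2 higher and 9 lower, against 39% of all genes in either direction. Of 17 genes of the pentose phosphate, hexosamine and polyol routes 5 rose and 5 fell, and of 24 regulators of glucose use 3 rose and 9 fell. Among those that fell were Bsg, the chaperone of lactate carriers, at -0.31 ± 0.031 on the log2 scale (edgeR adjusted p 1.68e-12), and Pgm1, the phosphoglucomutase, at -0.19 ± 0.020 (edgeR adjusted p 4.60e-12). Those that rose were led by Adpgk, an ADP-dependent glucokinase, at 0.17 ± 0.030 (edgeR adjusted p 5.58e-06), Hk3, a hexokinase of white blood cells, at 0.44 ± 0.081 (edgeR adjusted p 1.14e-05), and Tkt, transketolase, at 0.16 ± 0.031 (edgeR adjusted p 3.10e-05).

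The second question was how training related to the same genes within a genotype and sex. In nTG males edgeR called 0 members, where it called 0% of genes, and 3 members had an unadjusted p under 0.05. DESeq2 also called 0 members there, and 4 genes in all. In nTG females 1 member, Hk1, was called, where 0.148% of genes were. Hk1 ran from 234 to 286 CPM in sedentary (median 260) and from 269 to 337 in trained nTG females (median 299). The groups overlapped, and the log2 fold change was 0.24 ± 0.044 (edgeR adjusted p 0.0096). Hk1 was not called without the sedentary nTG female library of replicate 1, 3 or 4, which left 0 members. Without these libraries 1, 0 and 0 genes were called in all. Of these, replicate 4 was the library high in fibroblast and atrial markers and lowest of its group in 16 of 31 members. DESeq2 called 7 members there, where it called 131 genes in all or 0.775%, adding Slc2a4, Gpi1, Aldoa, Pygb, Gys1 and Phka1. In nTG females 28 of 31 members had a positive log2 fold change, with a median of 0.09, against -0.0019 over all genes.

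Averaged over the sexes of nTG mice, 3 members rose with training, where 0.384% of genes were called and 0.325% called higher. Hk1 rose by 0.17 ± 0.032 (edgeR adjusted p 0.0122), Gys1 by 0.17 ± 0.035 and Phka1 by 0.19 ± 0.038 (edgeR adjusted p 0.0183 for both). The Gys1 medians in nTG males were 223 CPM in sedentary and 238 in trained libraries, and in nTG females 205 and 231. The Phka1 medians were 52.6 and 57.6 in males and 50.5 and 58.6 in females. Single libraries held up part of this: 1 member was called without replicate 6 of the sedentary nTG males or replicate 4 of the sedentary nTG females, where 0.0296% of genes were called in each case. Gys1 and Phka1 were the members lost in both.

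In TG males 5 members were called, where 18% of genes were called. With training 2 were higher, against 10.3% of genes, and 3 lower, against 7.6%. Pfkfb1 ran from 1.25 to 4.25 CPM in sedentary (median 2.18) and from 1.59 to 5.39 in trained TG males (median 3.43), and rose by 0.60 ± 0.19 (edgeR adjusted p 0.0197). Gbe1, the glycogen branching enzyme, ran from 39.6 to 50.1 (median 44) and from 44.7 to 52.7 (median 49.1), and rose by 0.16 ± 0.052 (edgeR adjusted p 0.0285). Groups overlapped for both. Eno1 ran from 122 to 156 (median 140) and from 118 to 131 (median 126) and fell by 0.15 ± 0.042 (edgeR adjusted p 0.0111). Gpi1 ran from 531 to 623 (median 583) and from 504 to 566 (median 528) and fell by 0.12 ± 0.038 (edgeR adjusted p 0.0210). Gapdh ran from 2321 to 3461 (median 2846) and from 2285 to 2768 (median 2478) and fell by 0.20 ± 0.069 (edgeR adjusted p 0.0355). These 3 also overlapped between the groups.

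In this comparison all 6 blood markers and 4 of 7 macrophage and leukocyte markers were called lower with training, as were 2 of 6 endothelial, 1 of 7 fibroblast and 1 of 6 smooth muscle and pericyte markers. Higher were 2 of 7 cardiomyocyte and 1 of 3 Schwann and nerve markers. Blood markers summed to 291 to 4626 CPM in sedentary and 260 to 555 in trained TG males. Their part in the result was not tested. Without the fifth sedentary library, the one rich in blood markers, 5 members were called, against 14.1% of all genes. Without the fourth trained library 9 were, against 24% of all genes, the added ones being Hk2, Pgk1, Eno3 and Ldhb, all higher. Without the second sedentary TG male library 2 were called, with Gpi1, Pfkfb1 and Gapdh lost, and without the sixth 2, with Pfkfb1, Gapdh and Gbe1 lost, against 13% of all genes in each case. Without the seventh trained TG male library 3 were called, against 10.1%, with Gapdh and Gbe1 lost, and without the eighth 3, against 15.1%, with Pfkfb1 and Gapdh lost. Over the 17 such fits Gapdh was lost in 6, Pfkfb1 in 4, Gbe1 in 4 and Gpi1 in 1. In TG females 0 members were called by edgeR or DESeq2, where 0% of genes were called, and 0 had an unadjusted p under 0.05. There 27 of 31 had a positive log2 fold change, with a median of 0.042, against -0.0043 over all genes. From the further lists, the smallest p in TG males were those of Ppp1r3a, which targets phosphatase to glycogen, at 0.37 ± 0.078 (edgeR adjusted p 0.00176), Prkaa2, a catalytic subunit of AMP-activated kinase, at 0.20 ± 0.044 (edgeR adjusted p 0.00207), and Ogt, which attaches the hexosamine product to proteins, at 0.21 ± 0.050 (edgeR adjusted p 0.0035).

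**Figure D5:**
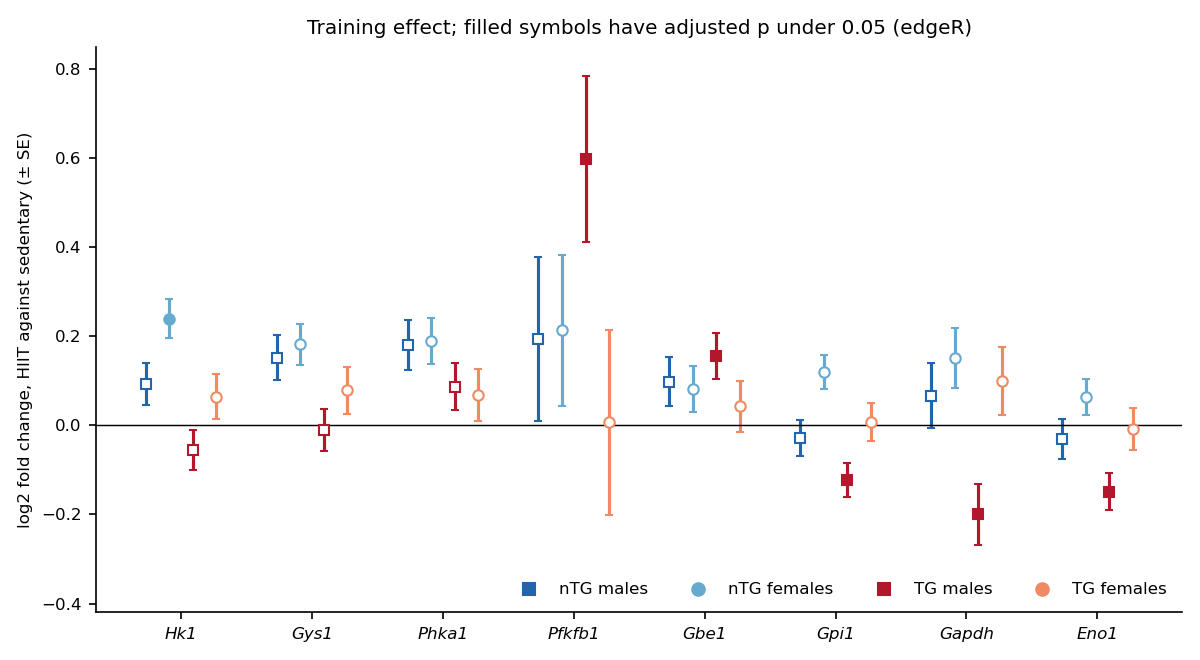
Log2 fold change with HIIT, with its SE, in the 4 genotype and sex groups for 8 genes; filled symbols are edgeR calls. Pfkfb1 is at 0.60 in TG males and 0.01 in TG females, and Hk1 at 0.24 in nTG females and -0.06 in TG males.

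No difference between these effects was called. The edgeR interaction of genotype with training called 0 members in males, where 3 had an unadjusted p under 0.05 (Hk1, Gapdh, Gys1), and 0 in females, where 1 had (Hk1). DESeq2 called 0 as well. The interaction of genotype with sex in sedentary mice called 0 members, with 0 at an unadjusted p under 0.05. The interaction of training with sex in TG mice called 0, with 5 unadjusted (Gpi1, Pfkfb1, Gapdh, Eno1, Ugp2), and DESeq2 called 0, with 7 unadjusted. Over all genes edgeR called 0% in each of the 4 interactions, while DESeq2 called 13 genes for genotype with training in males, 0 in females, 1 for genotype with sex and 223 for training with sex. In edgeR, training with sex called 904 genes without the sixth trained TG female library, 460 without the fourth trained TG male library and 416 without the fourth sedentary TG female library, with 0 members each time. So the call of Pfkfb1 with training in TG males, and the lack of one in TG females, do not show that the sexes differed.

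Between the sexes of sedentary nTG mice 5 members were called, where 2.22% of genes were called. All 5 were lower in females, as were 1.37% of genes. Pygb, the brain form of phosphorylase, ran from 898 to 981 CPM in males (median 924) and from 746 to 852 in females (median 799), without overlap, and its log2 fold change was -0.22 ± 0.046 (edgeR adjusted p 0.00378). Pgam2, the muscle mutase, ran from 351 to 438 (median 380) and from 280 to 370 (median 324), and its log2 fold change was -0.25 ± 0.055 (edgeR adjusted p 0.00534). Pfkm, at -0.19 ± 0.042 (edgeR adjusted p 0.00743), had medians of 1084 and 951. Tpi1 and Pkm, with medians of 415 and 368 and of 1050 and 933, were lower, at -0.18 ± 0.042 (edgeR adjusted p 0.0114) and -0.17 ± 0.041 (edgeR adjusted p 0.0152). Pygb was the member whose groups were apart, as were 0.266% of all genes in that direction. Without the fourth sedentary nTG female library, the one high in fibroblast and atrial markers, 3 members were called (Pfkm, Pgam2, Pygb), against 1.21% of all genes. In this comparison 1 of 7 fibroblast markers (Lum) and 1 of 3 adipocyte markers (Cfd) were called higher in females. Fibroblast markers summed to 772 to 1035 CPM in males and 883 to 1538 in females, and adipocyte markers to 0.351 to 8.49 and 2.53 to 18.6. Their part in the result was not tested.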

How the data were processed

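Per the labels' protocols, total RNA was extracted with a fibrous tissue kit, ribosomal RNA was depleted and broad-range libraries were made. The submitters' processing notes name cutadapt 2.3, FastQC 0.11.8, MultiQC 1.7, STAR 2.7.8a and RSEM 1.3.3 and builds GRCm38 and mm10, with no role or order. The authors deposited whole-number counts per gene. The authors also deposited an estimated count, not always whole, per long noncoding transcript, which served to match columns and were not tested. As RSEM is named, the deposited gene counts may be rounded estimates. Symbols and exons came from GENCODE M21, which matched 16879 of 16913 identifiers.

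Gene columns were assigned to libraries by Pearson's r of centred log2 CPM (pseudocount 0.5, minimum mean 20 counts); a minimum of 50 gave the same match. Counts were tested with edgeR 4.0.16 in R 4.3.3 (filterByExpr, TMM, quasi-likelihood F test, 1 model of 8 group means), with Benjamini-Hochberg adjustment over all 16913 genes and calls at an adjusted p under 0.05. The standard error is the log2 fold change divided by the square root of F. CPM use TMM-scaled library sizes. The fits were checked on simulated data. DESeq2 1.42.0, other size factors, no filter, a replicate block, columns by name and leaving out each library were tried.

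Members and lists were chosen with earlier results of these data known. Full values are given for the 8 members with the smallest p in the mean of the strata, for up to 5 called members in each comparison of 2 groups, and for 9 members in any case. From the further lists, 3 genes per direction (genotype) and 3 (training in TG males) with the smallest p are named, except 1 that is not reported here. P-values set a difference between groups against the spread between animals' libraries within groups.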

Additional observations from a re-analysis of the deposited data

Results flagged for a closer look

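In 13 of 248 sets of values, each a member in a group, the highest or lowest library stood far from the rest by Dixon's criterion; chance gives 1 in 20, or 12.4. Of these, 4 were low values of the fourth trained TG male library: Pfkm at 744 CPM (others 883 to 964), Pfkl at 117 (others 135 to 149), Pgk1 at 139 (others 154 to 163) and Ldhb at 963 (others 1228 to 1463). This library had the highest fibroblast marker sum (1892 CPM) and the highest atrial cardiomyocyte marker sum (682 CPM) of all 64.

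Pfkfb1 stood out in a pair of groups, at 3.96 CPM in the eighth sedentary TG female library (others 1.85 to 2.76) and at 1.71 in the third trained TG female library (others 2.50 to 2.94). Sedentary TG females held 3 more: Pgam2 at 251 in the seventh library (others 290 to 319), Gbe1 at 35.4 in the fourth (others 42.9 to 46.3) and Phkg1 at 20.3 in the first (others 7.75 to 13.2). In nTG males Slc2a1 was at 27.8 in the fifth trained library (others 21.2 to 24), Slc2a12 at 8.36 in the seventh sedentary library (others 6.87 to 7.43) and Gys1 at 182 in the sixth sedentary library (others 210 to 230). Phka1 was at 64.5 in the sixth trained TG female library (others 50.2 to 55.3).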

How the results depend on the processing

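Among 47 named values, which hold up to 5 calls a stratum, DESeq2, median-of-ratios size factors and the replicate block kept direction and call for 47 each, and leaving out 1 library kept 38 and lost a call for 9. Of all 50 calls in single strata, DESeq2 lost 0, the block 1 (Pfkl in sedentary females) and size factors 3 (Pfkl again, Aldoa in trained males, Tpi1 in trained females), and leaving out 1 library lost 13 at least once. Lost calls by fits were Hk1 in nTG females (3 of 18), Pfkfb1 (4 of 17), Gpi1 (1), Gbe1 (4) and Gapdh (6) with training in TG males, Tpi1 (1 of 15) and Pkm (3 of 15) by sex, and Phka1 (2 of 33) and Gys1 (3 of 33) in nTG mice. Replicate numbers were not taken as pairs, since in no comparison did every pair of same-numbered libraries correlate above 0.1 in its deviations (range -0.344 to 0.430). With training the median r was 0.210 in TG males (other numbers -0.046) and 0.112 in nTG males (other numbers -0.017), with 5 of 8 and 5 of 7 pairs above 0.1. With the replicate block members called were 15, 16, 7 and 18 in the 4 strata, 24 in the mean, 5 in TG males and 5 by sex, where the block called 21.8%, 14.1%, 4.39%, 11.7%, 38.4%, 17.4% and 2.56% of all genes. Without 1 library the counts ran from 11 to 16 in sedentary males, 9 to 15 in trained males, 7 to 10 in sedentary females, 12 to 16 in trained females, 24 to 24 in the mean, 0 to 0 in nTG males, 0 to 2 in nTG females, 1 to 3 in the nTG mean, 2 to 9 in TG males, 0 to 0 in TG females and 3 to 5 by sex. All-gene shares then ran from 16.4% to 22.4%, 10.4% to 15.2%, 3.09% to 5.78%, 11.4% to 16.6% and 37.2% to 40% for genotype in this order, from 0% to 0.367% in nTG females, 0.0296% to 0.786% in the nTG mean, 10.1% to 24% in TG males and 1.21% to 3.03% by sex. DESeq2 called 7 members with training in nTG females.

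With gene columns taken by name, 0 members were called in each genotype stratum and their mean, in nTG females and TG males with training and by sex; 1 was in nTG males (0.78% of genes) and 11 in the nTG mean (14.2% of genes). There 19 named values reversed and 28 lost their call; by construction, the columns then mix sexes and genotypes. Reversed log2 fold changes were, in sedentary males, Pfkm at 0.0044444, in trained males Gys1 at 0.027, Pfkfb1 0.37, Pfkl 0.020, Slc2a12 0.18 and Pfkp -0.15, in trained females Pfkfb1 0.18 and Pfkp -0.062, in the mean Hk1 -0.043 and Ldhb 0.016, with training in TG males Pfkfb1 -0.18 and Gbe1 -0.087, in the nTG mean Phka1 -0.019 and Gys1 -0.21, and by sex Pygb 0.11, Pgam2 0.057, Pfkm 0.066, Tpi1 0.021 and Pkm 0.044. Log2 ratio differences by name were -0.039 for Slc2a12 to Slc2a4 (-0.31 as matched), -0.016 for Hk1 to Hk2, 0.11 for Pfkp to Pfkm and -0.39 for Pfkfb1 to Pfkfb2. Pfkfb1, the lowest per kb, had at least 62 counts in every library. Spread within groups was wide for the low members Phkg1 and Pfkfb1, at 23.9% and 21.8%, and the part of depth in it was not tested.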
